A study of Mus musculus with 16 samples.

Results

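The genes described here are 8 markers of GABAergic neurons of the midbrain, chosen by symbol: Gad1, Gad2, Slc32a1, Gata2, Gata3, Tal1, Sox14 and Lhx1. All 8 were found among the 19938 genes measured on 16 mouse gene arrays, each through 1 probe set. The study asked how a secreted Dickkopf protein, DKK3, together with WNT1 affects the formation of midbrain dopaminergic neurons, so these genes mark neurons that lie next to the intended cell type. The first group, called treated here, holds 5 biological replicates of neurons differentiated from induced pluripotent stem cells (iPSCs) in medium with recombinant human WNT1 and DKK3. The second, called control, holds 5 biological replicates of iPSC-derived neurons made without these proteins. The primary groups are neurons taken from the ventral midbrain of embryos at E14.5 and at E13.5, with 3 technical replicates each, so that each stage is 1 sample. All groups share the genotype Pitx3GFP/+, in which 1 copy of Pitx3, a dopaminergic transcription factor gene, carries green fluorescent protein, and the mixed strain C57BL/6 x 129/Ola. Per the design text, all cells were sorted for this fluorescence, and no GABAergic population was collected as such. Pitx3 itself averaged 5.92 ± 0.21 in treated and 5.89 ± 0.26 in control neurons (SD, n = 5 each), against 7.50 ± 0.15 at E14.5 and 7.44 ± 0.29 at E13.5 (SD over 3 technical arrays), on the log2 scale of the arrays. It was lower than in primary neurons in both iPSC-derived groups (limma adjusted p = 2.56e-05 in treated and 2.14e-05 in control neurons) and exceeded only 41.6% of genes in each. The labels do not say how many iPSC lines or embryos were used, nor whether the biological replicates are separate cultures, and p-values therefore reflect only the spread among the samples at hand, which may be technical.

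GABAergic neurons release gamma-aminobutyric acid (GABA), the main inhibitory transmitter of the brain. It is made from glutamate by 2 decarboxylases, encoded by Gad1 and Gad2, and loaded into synaptic vesicles by the transporter encoded by Slc32a1. In the embryonic midbrain, the zinc finger factor Gata2 selects the GABAergic fate as precursors leave the cell cycle. The zinc finger factor Gata3 and the basic helix-loop-helix factor Tal1 are found in young GABAergic neurons. Sox14 and Lhx1 are transcription factors of subsets of the young neurons. Some midbrain dopaminergic neurons also release GABA. Outside the brain, Gata2 and Tal1 are known from blood and endothelial cells, Gata2 and Gata3 from trophoblast, and Lhx1 from the early kidney and the gastrulating embryo.

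Promoter sequences are shown for the genes that make and load GABA, since Gad2 and Slc32a1 had the largest differences of the 8 genes. They are RefSeq sequences of the build GRCm38.p6, all from the + strand of chromosome 2, and span 250 bases before to 50 bases after a listed transcript start: chr2:70561879-70562178 for Gad1, chr2:22622077-22622376 for Gad2 and chr2:158610508-158610807 for Slc32a1. Capitals mark matches to 2 motifs searched on both strands: the GATA-factor motif (spelled AGATAA in its first form, AGATAG in the second, with TGATAA and TGATAG as the other forms searched) and the E-box CANNTG, which basic helix-loop-helix factors can bind.
Gad1: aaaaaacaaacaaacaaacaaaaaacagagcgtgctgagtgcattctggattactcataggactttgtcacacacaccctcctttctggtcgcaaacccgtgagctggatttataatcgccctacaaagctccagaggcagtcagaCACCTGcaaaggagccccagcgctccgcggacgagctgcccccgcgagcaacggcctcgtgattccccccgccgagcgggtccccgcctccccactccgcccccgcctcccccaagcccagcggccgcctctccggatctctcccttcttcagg
Gad2: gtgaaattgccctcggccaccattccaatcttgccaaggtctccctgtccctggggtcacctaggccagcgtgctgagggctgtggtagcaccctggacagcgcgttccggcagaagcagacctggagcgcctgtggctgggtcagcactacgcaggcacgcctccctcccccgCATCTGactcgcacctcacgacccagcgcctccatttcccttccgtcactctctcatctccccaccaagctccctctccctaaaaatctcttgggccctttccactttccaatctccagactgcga
Slc32a1: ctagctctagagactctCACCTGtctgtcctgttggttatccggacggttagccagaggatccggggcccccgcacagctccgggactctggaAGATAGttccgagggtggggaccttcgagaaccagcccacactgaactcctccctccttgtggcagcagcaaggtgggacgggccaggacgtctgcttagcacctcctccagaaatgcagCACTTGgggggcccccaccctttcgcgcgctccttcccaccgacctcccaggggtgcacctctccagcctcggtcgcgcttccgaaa
The Slc32a1 window held 1 GATA motif and 2 E-boxes, which did not overlap, and the Gad1 and Gad2 windows held 1 E-box each and no GATA motif. Over the 10 listed starts of the 8 genes, 4 windows held a GATA motif (Slc32a1, Gata3, Sox14 and 1 of 2 starts of Tal1) and 7 an E-box. Among all 32851 windows of this length, 29.8% held a GATA motif and 72.3% an E-box, so these letters are common and are given as a description of the windows. No measurement of binding at these windows was used here.

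Values are log2 levels after RMA, so a difference of 1 is a 2-fold change. The files hold no detection call, so the place of a level is also given as the share of the 19938 genes with a lower level on the same array, which reads probe brightness and not transcript number. The lower quartile of the genes lay between 4.84 and 4.97 on iPSC-derived arrays and between 4.93 and 5.11 on primary arrays, and the median lay between 6.37 and 6.44 on iPSC-derived and between 6.17 and 6.25 on primary arrays. Where a group lies near or below that quartile, the size of its difference describes the deposited values and cannot be read exactly. The number of arrays limits the precision. Of the measured dopaminergic genes, 11 of 11 were lower in control than in primary neurons, where 22.5% of all genes were called lower. Their mean level was 5.81 to 7.79 on treated, 5.91 to 7.46 on control, 9.80 to 9.92 on E14.5 and 9.65 to 10.06 on E13.5 arrays. The arrays numbered 5 of both iPSC-derived groups stood apart by high levels of dopaminergic and pan-neuronal genes, and results that rest on them are given with and without both.

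All 3 genes of GABA synthesis and vesicular loading were lower in iPSC-derived than in primary neurons. The log2 difference of control from primary neurons was -3.85 for Gad2, -2.81 for Slc32a1 and -0.71 for Gad1, and most iPSC-derived Gad2 levels lay near the lower quartile of the arrays. With limma and Benjamini-Hochberg adjustment over all genes, 6 of the 8 genes were lower in control than in primary neurons and 0 higher, where 22.5% of all genes were called lower and 19.3% higher. In treated against primary neurons, the counts were again 6 and 0, against 21.3% and 19.9% of all genes. Both comparisons use the same 2 primary samples, so the counts are not independent. With each array centred on its median, the median of all genes moved to -0.30 in both, and 25.6% of the genes called were higher in control and 25.8% in treated neurons, against 46.2% and 48.3% without centring. The median difference over the 8 genes was -0.80 in control and -0.77 in treated neurons, beside -0.11 and -0.09 over all genes. In these bulk samples, fewer cells of a type and less RNA per cell cannot be told apart.

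Gad2, the decarboxylase found at nerve terminals, was at 5.06, 4.82, 4.87, 4.82 and 6.33 on treated arrays 1 to 5 and at 5.30, 4.88, 5.02, 4.88 and 5.79 on control arrays 1 to 5. On primary arrays it was at 9.40, 8.95 and 9.21 at E14.5 and at 9.34, 8.71 and 8.54 at E13.5. No iPSC-derived array came near the primary levels, and array 5 was the highest of both iPSC-derived groups. Primary Gad2 levels exceeded those of 88.1% to 94.0% of genes on the same array, against 23.0% to 47.8% on treated and 25.1% to 39.5% on control arrays. The difference was -3.85 (SE 0.38) both in treated neurons (adjusted p = 6.31e-06) and in control neurons (adjusted p = 6.1e-06). Only 0.231% and 0.236% of all genes had a difference as low.

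Slc32a1, the vesicular GABA transporter gene, was at 6.19, 5.9, 5.99, 5.96 and 6.67 on treated arrays and at 6.12, 5.59, 5.79, 5.57 and 6.37 on control arrays. It was at 8.70, 8.38 and 8.76 on E14.5 arrays and at 9.17, 8.38 and 8.76 on E13.5 arrays. As for Gad2, every primary array lay above every iPSC-derived array, and both arrays numbered 5 were the highest of their groups. The difference from primary neurons was -2.55 (SE 0.24, adjusted p = 4.72e-06) in treated and -2.81 (SE 0.24, adjusted p = 2.2e-06) in control neurons.

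Gad1, which encodes the decarboxylase found throughout the neuron, was at 5.10, 5.22, 5.29, 5.28 and 5.10 on treated arrays and at 5.17, 4.80, 5.32, 5.33 and 5.42 on control arrays. On E14.5 arrays it was at 6.04, 5.66 and 6.01 and on E13.5 arrays at 6.21, 5.91 and 5.69. The primary and iPSC-derived arrays did not overlap, but even the highest primary array placed Gad1 above only 50.6% of genes. Its difference from primary neurons was -0.72 (SE 0.15, adjusted p = 0.00202) in treated and -0.71 (SE 0.15, adjusted p = 0.00212) in control neurons, and 11% and 11.5% of all genes differed by as much in this direction.

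**Figure D1:**
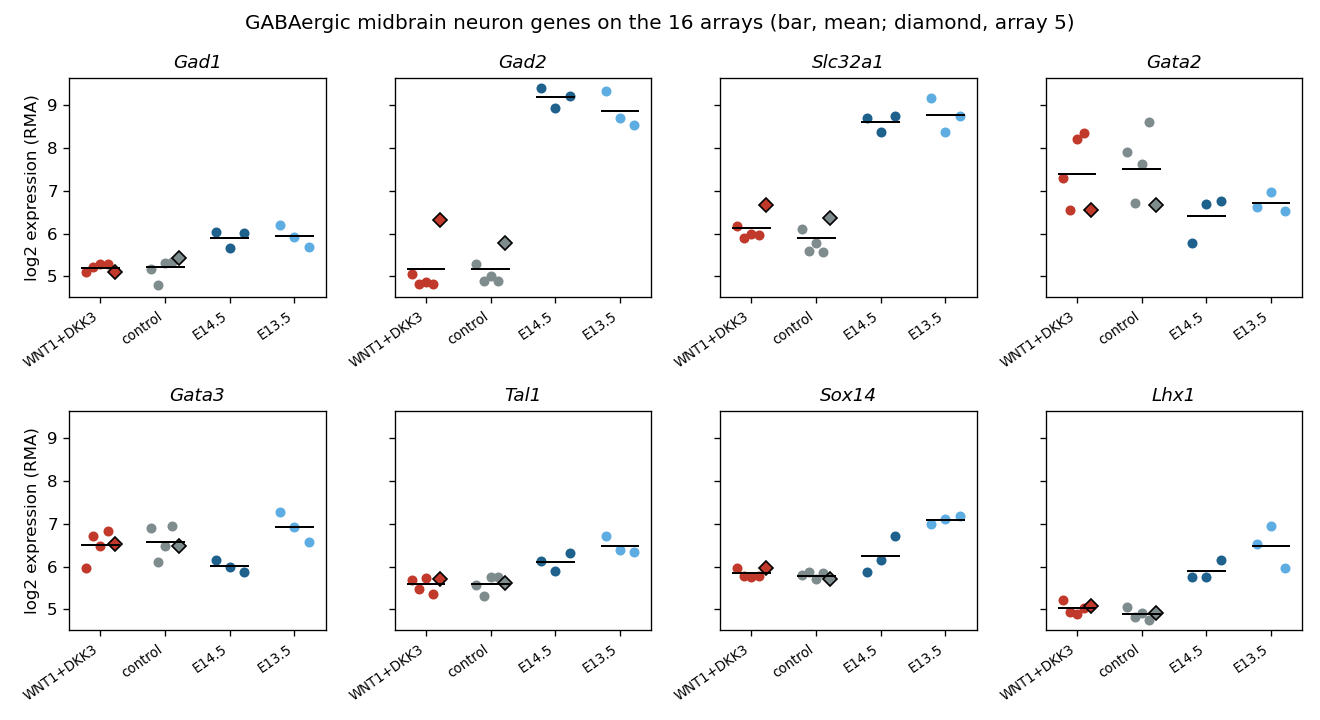
Log2 expression (vertical axis) of the 8 genes on each array of the treated (WNT1+DKK3), control, E14.5 and E13.5 groups, with a bar at the group mean and a diamond for array 5. Gad2 and Slc32a1 are at 8.38 or above on primary arrays and at 6.67 or below on iPSC-derived arrays, while Gata2 spans 6.55 to 8.62 on iPSC-derived arrays.

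Among the transcription factors, Lhx1, Sox14 and Tal1 were lower in iPSC-derived neurons, and Gata2 and Gata3 did not pass the test. Lhx1, a LIM homeobox gene, was at 5.22, 4.93, 4.90, 5.04 and 5.08 on treated arrays and at 5.06, 4.82, 4.92, 4.74 and 4.92 on control arrays. It was at 5.75, 5.76 and 6.16 on E14.5 arrays and at 6.54, 6.96 and 5.97 on E13.5 arrays. Both iPSC-derived groups lay near the lower quartile of the arrays and did not overlap the primary arrays. Lhx1 was lower in treated (difference -1.16, SE 0.15, adjusted p = 7.45e-05) and in control neurons (difference -1.30, SE 0.15, adjusted p = 2.91e-05).

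Sox14, an HMG-box gene of a subset of midbrain GABAergic neurons, was at 5.96, 5.77, 5.75, 5.78 and 5.97 on treated and at 5.81, 5.88, 5.70, 5.84 and 5.70 on control arrays. At E14.5 it was at 5.87, 6.15 and 6.71, and at E13.5 at 7.0, 7.11 and 7.18. The E13.5 arrays were above all others, whereas the lowest E14.5 array lay within the iPSC-derived range. The difference from primary neurons was -0.82 (SE 0.18, adjusted p = 0.00268) in treated and -0.89 (SE 0.18, adjusted p = 0.00161) in control neurons. With E14.5 as the only primary sample, whose spread is then assumed to be that of the other groups, it was -0.40 (adjusted p = 0.0551) in treated and -0.46 (adjusted p = 0.0302) in control neurons.

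Tal1 was at 5.68, 5.47, 5.74, 5.36 and 5.71 on treated and at 5.57, 5.31, 5.75, 5.76 and 5.62 on control arrays, against 6.14, 5.89 and 6.31 at E14.5 and 6.71, 6.38 and 6.35 at E13.5. The primary arrays were all higher, by a narrow margin at E14.5. Its difference was -0.70 (SE 0.15, adjusted p = 0.0031) in treated and -0.69 (SE 0.15, adjusted p = 0.00336) in control neurons. Against E14.5 alone, the call was lost in both groups, at -0.52 (adjusted p = 0.0706) in treated and -0.51 (adjusted p = 0.0746) in control neurons.

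**Figure D2:**
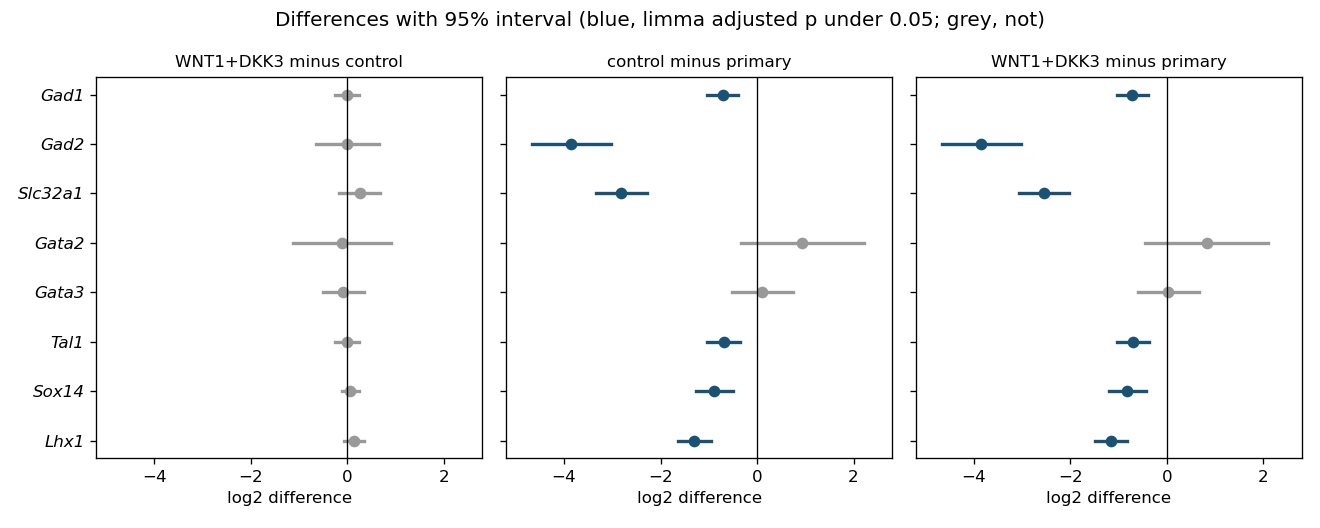
Log2 difference (horizontal axis) with its 95% interval for each gene in treated against control, control against primary and treated against primary neurons, blue where the limma adjusted p was under 0.05. In both comparisons with primary neurons, 6 genes are blue and lie below 0, from -0.69 for Tal1 in control neurons to -3.85 for Gad2, and in treated against control neurons every interval holds 0.

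Gata2 was the member with the widest spread among iPSC-derived arrays. It was at 7.31, 6.55, 8.21, 8.35 and 6.55 on treated arrays 1 to 5 and at 7.90, 6.71, 7.62, 8.62 and 6.66 on control arrays 1 to 5. On primary arrays it was at 5.78, 6.69 and 6.77 at E14.5 and at 6.63, 6.97 and 6.54 at E13.5. The arrays numbered 1, 3 and 4 lay above all primary arrays in both iPSC-derived groups, and those numbered 2 and 5 lay within the primary range. The difference from primary neurons was 0.83 (95% interval -0.45 to 2.10, adjusted p = 0.271) in treated and 0.94 (-0.33 to 2.22, adjusted p = 0.209) in control neurons.

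The arrays numbered 4 had the highest Gata2 level and the highest means of trophoblast, surface epithelium and endothelial genes in both iPSC-derived groups. These tissues also express GATA factors. The levels did not run together throughout: treated arrays 1 and 2 had trophoblast means of 7.16 and 7.17, with Gata2 at 7.31 and 6.55. The mean level over 12 measured trophoblast genes was 7.16, 7.17, 7.78, 8.02 and 6.64 on treated arrays 1 to 5 and 7.88, 7.14, 7.61, 7.95 and 6.70 on control arrays 1 to 5, against 5.32 to 5.50 at E14.5 and 5.45 to 5.56 at E13.5. Array 4 was the highest and array 5 the lowest of both groups in this list. Of the 12 genes, 5 were higher and 0 lower in treated and 6 and 0 in control neurons, with medians of 1.39 and 1.48. Over all genes, 19.9% were called higher in treated and 19.3% in control neurons. Among them were Krt18, a keratin gene of simple epithelia (5.53 in treated and 5.68 in control neurons), and Tpbpa, a trophoblast gene (3.98 treated, 4.28 control), and without both arrays numbered 5 the counts were 8 higher in each. The trophoblast stem cell factor genes Cdx2 and Eomes did not pass the test: Cdx2 averaged 5.73 in treated, 5.70 in control and 5.80 in primary neurons, and Eomes 5.06 in treated, 4.95 in control and 4.88 in primary neurons. The mean over 9 surface epithelium genes was 6.27 to 7.68 on treated, 6.23 to 7.63 on control, 5.45 to 5.50 on E14.5 and 5.65 to 5.78 on E13.5 arrays. Of these, 3 were higher and 0 lower in each iPSC-derived group, or 5 in treated and 6 in control neurons without both arrays numbered 5. The part of these markers in the Gata2 levels was not tested.

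Markers of the other tissues that use these factors gave the following counts. Over all genes, 19.9% were called higher and 21.3% lower in treated, and 19.3% higher and 22.5% lower in control neurons. The lists are short, so their counts are given as a description. Of 12 endothelial genes, 4 were higher, 1 was lower and 7 were not called in each iPSC-derived group against primary neurons. The largest differences were those of Cdh5, the VE-cadherin gene (3.11 in treated and 3.27 in control neurons), and Flt1, a receptor gene for vascular endothelial growth factors (2.23 treated, 2.26 control). The lower gene was Cldn5 (-0.43 treated, -0.47 control). Their mean level was 6.30 to 6.57 on treated and 6.32 to 6.53 on control arrays, against 5.35 to 5.41 at E14.5 and 5.30 to 5.67 at E13.5. Tal1, which endothelial cells can also express, was lower in these same samples, and the part of endothelial cells in its level was not tested. Of 14 blood and erythroid genes, 1 was higher (Runx1, at 1.51 in treated and 1.52 in control neurons) and 4 were lower in each group. Of 9 kidney and mesendoderm genes, 1 was higher and 3 lower. The higher one was Osr1, a gene of early kidney and other mesoderm (3.25 treated, 3.61 control), and the lower ones included Foxa2 (-2.67 treated, -2.80 control), which floor plate and dopaminergic neurons also express.

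Gata3, the close relative of Gata2, was at 5.97, 6.71, 6.48, 6.83 and 6.52 on treated and at 6.90, 6.11, 6.48, 6.95 and 6.48 on control arrays, against 6.16, 5.99 and 5.88 at E14.5 and 7.28, 6.93 and 6.57 at E13.5. The iPSC-derived arrays fell between the stages and overlapped both. Its difference from primary neurons was 0.03 (95% interval -0.59 to 0.66, adjusted p = 0.928) in treated and 0.11 (-0.51 to 0.74, adjusted p = 0.761) in control neurons. The sign depended on the stage: against E13.5 alone it was -0.42 in treated and -0.34 in control neurons, against E14.5 alone 0.49 and 0.57, and none of these passed. With the arrays centred on their medians the differences from both stages together were -0.17 in treated and -0.07 in control neurons.

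The question of the study for culture was whether WNT1 and DKK3 changed the cells formed. None of the 8 genes differed between treated and control neurons beyond the spread between replicates: 0 were higher and 0 lower, where 0% of all genes were called in each direction. The smallest adjusted p over all genes was 0.753 with limma, and 300 genes, 1.5% of those tested, had an unadjusted p under 0.05. For the genes of GABA synthesis and loading, Gad1 averaged 5.2 ± 0.09 in treated and 5.21 ± 0.24 in control neurons (SD, n = 5 each), with a difference of -0.0064 and a 95% interval from -0.26 to 0.25. Gad2 averaged 5.18 ± 0.65 in treated and 5.17 ± 0.39 in control neurons, and the difference was 0.0040 (-0.64 to 0.65). Slc32a1 averaged 6.14 ± 0.31 with treatment and 5.89 ± 0.35 in controls, and differed by 0.26 (-0.16 to 0.67). Only 2.05% of all genes had a difference as high as that of Slc32a1, but its unadjusted p was 0.203 and its adjusted p 1 with limma.

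For the factors, the same comparison gave 0.14 for Lhx1 (-0.06 to 0.34), with 5.04 ± 0.13 in treated and 4.89 ± 0.12 in control neurons. It gave 0.06 for Sox14 (-0.11 to 0.24) and -0.0096 for Tal1 (-0.26 to 0.24). The interval was wider for Gata3, at -0.08 (-0.50 to 0.34), and widest for Gata2, at -0.11 (-1.13 to 0.91), with 7.39 ± 0.87 in treated and 7.50 ± 0.83 in control neurons. For 7 of the 8 genes, Gata2 being the exception, changes of over 2-fold in the deposited values, in either direction, lay outside the 95% interval. For Gad1, Gad2 and Lhx1, whose levels lay near the lower quartile of the arrays, this cannot be read as a bound on the change in transcript. Without both arrays numbered 5, Gad2 differed by -0.13 and Gad1 by 0.07. Leaving out single arrays also turned both signs, and rescaling turned that of Gad2, so neither difference has a settled direction.

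Between the primary stages, Gata3 and Sox14 had the largest differences among the 8 genes, and both were lower at E14.5. Gata3 averaged 6.01 ± 0.14 at E14.5 and 6.93 ± 0.35 at E13.5 (SD over 3 technical arrays each), a difference of -0.92, and Sox14 averaged 6.24 ± 0.43 at E14.5 and 7.10 ± 0.09 at E13.5, a difference of -0.85. Tal1 differed by -0.36, with 6.11 ± 0.21 at E14.5 and 6.48 ± 0.20 at E13.5. In these 3 genes all E14.5 arrays were below all E13.5 arrays, where 4.93% of all genes were lower and 4.75% higher without overlap. None differed by 1 or more on the log2 scale together with separate arrays, the rule used to call a stage difference, which 0.0652% of all genes met as lower and 0.176% as higher. Each stage is 1 sample, so there is no test, and stage and sample cannot be told apart.

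The other 5 genes overlapped between the stages. Lhx1 was at 5.89 ± 0.23 at E14.5 and 6.49 ± 0.50 at E13.5, a difference of -0.60, and Gata2 at 6.41 ± 0.55 at E14.5 and 6.71 ± 0.23 at E13.5, a difference of -0.30. The genes of GABA synthesis and loading moved less evenly: Gad2 was at 9.19 ± 0.23 at E14.5 and 8.86 ± 0.42 at E13.5, a difference of 0.32, Slc32a1 differed by -0.16 and Gad1 by -0.03. In all, 7 of the 8 genes were lower at E14.5 by some amount, Gad2 being the exception, with a median of -0.33. Over all genes the median was -0.0067, so a lower level by some amount was common among them too. The count of 7 rests in part on unsettled signs. Over the alternatives, Gad1 ranged from -0.15 to 0.11, Gata2 from -0.48 to 0.06 and Slc32a1 from -0.35 to 0.04. Without E14.5 array 3, the Sox14 difference was -1.09 and met the rule, as did Gata3 at -1.09 without E13.5 array 3, and without E13.5 array 1 the Slc32a1 difference was 0.04.

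On the arrays numbered 5, Gad2 and Slc32a1 were high together with neuronal genes. Gad2 on array 5 exceeded the mean of the other 4 arrays by 1.43 in treated and 0.77 in control neurons, differences that 0.968% and 3.26% of all genes matched. Slc32a1 exceeded it by 0.65 and 0.61, matched by 5.94% and 5.03% of genes. These were the only 2 of the 8 genes at their highest on array 5 in both groups, a pattern that 2899 of the 19938 genes showed. The mean over 13 pan-neuronal genes on array 5 was 8.19 in treated and 7.90 in control neurons, against at most 6.36 on the other treated and 6.55 on the other control arrays. Th, the dopamine synthesis gene, was at 9.22 on treated and 8.52 on control array 5, which is 3.58 and 2.73 above the mean of the other arrays. Gata2 moved the other way, by -1.05 and -1.06, while Gad1, Gata3, Tal1, Sox14 and Lhx1 stayed within 0.27 of the other arrays in both groups. These are values of 1 array a group, without a test.

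**Figure D3:**
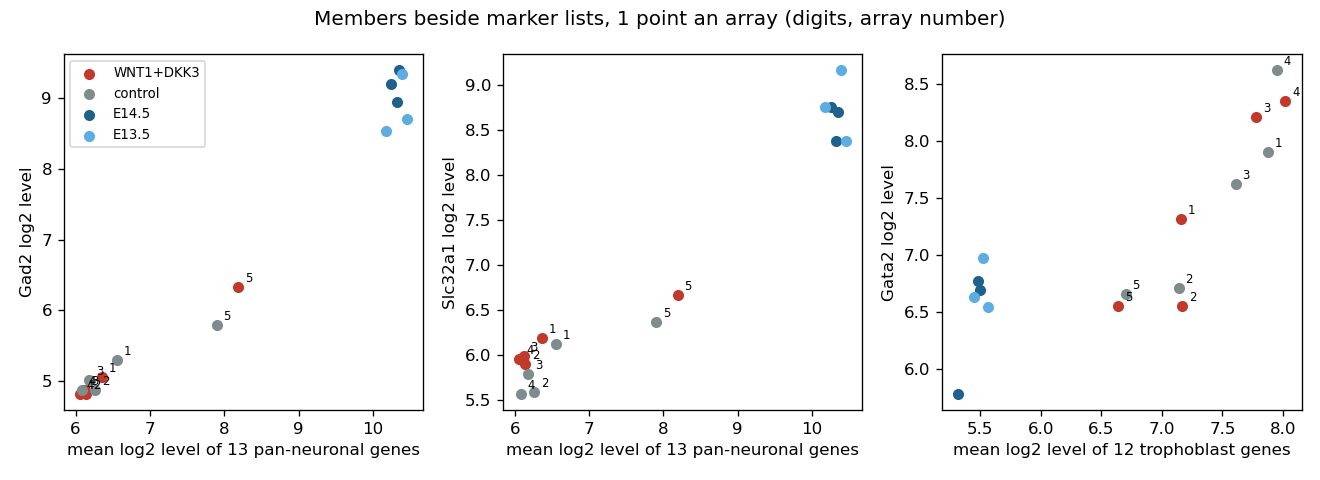
Log2 levels of Gad2 and Slc32a1 (vertical axes) against the mean level of 13 pan-neuronal genes, and of Gata2 against the mean level of 12 trophoblast genes, with 1 point an array and digits for the array number of iPSC-derived arrays. Array 5 of both groups lies between the other iPSC-derived arrays and the primary arrays for Gad2, at 6.33 in treated and 5.79 in control neurons, and Gata2 is highest on the arrays numbered 4, at 8.35 and 8.62.

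The genes most like each member in their pattern were found by Pearson's r over the 10 iPSC-derived arrays, which share the arrays numbered 5 as extreme points, so r without these 2 arrays is given too. Gad2 was most like Rab3c, a gene of a synaptic vesicle GTPase (r = 0.99, and 0.87 over 8 arrays), Nrxn3, a neurexin gene (0.98 and 0.79), and Cpne7 (0.98 and 0.78). Slc32a1 was most like Fbxw9 (0.97 and 0.94), Mapkbp1 (0.95 and 0.87) and Ryr1 (0.95 and 0.90). Gata2 was most like Cryab, a small heat shock protein gene, Arid3a, a DNA-binding factor gene, and Epn3, an epsin gene, each at 0.99 and at 0.98 or 0.99 over 8 arrays. Epn3 averaged 7.61 in the treated and 7.83 in the control group, against 5.78 at E14.5 and 6.12 at E13.5. For Gad1, Gata3, Tal1, Sox14 and Lhx1, the closest genes were Serpina12 (0.95 and 0.94), Calm2 (0.95 and 0.98), Paqr5 (0.98 and 0.98), D6Ertd474e (0.92 and 0.86) and Il17a (0.92 and 0.94). Serpina12, D6Ertd474e and Il17a averaged 4.46, 5.06 and 5.13 in treated neurons, near or below the lower quartile of the arrays. Each r is the highest among all genes compared over few arrays, so a high r alone does not show shared regulation. Over 12 samples, which add the 2 primary stages and so read mainly the split between primary and iPSC-derived neurons, Gad2 was most like Fam189a1, Cacna1e and Serpini1 (1.00 each), Slc32a1 like Gpc2 (0.99), Lhx1 like Gpr165 (0.98), Sox14 like Elovl3 (0.99) and Gata2 like Il2rb (0.98).

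Among the 8 genes themselves, the closest pair within the iPSC-derived arrays was Gad2 and Slc32a1, at r = 0.86 over 10 arrays and 0.50 without the arrays numbered 5. Slc32a1 and Lhx1 were at 0.68 and 0.91, and Gata2 and Gata3 at 0.50 and 0.56. Gad1 was at 0.54 and 0.64 with Gata3, at 0.51 and 0.61 with Tal1, at 0.39 and 0.65 with Gata2, and at -0.66 and -0.60 with Sox14. With Gad2 it was at 0.04 and -0.07, and with Slc32a1 at 0.14 and 0.17.

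Some other genes of GABA handling were higher in iPSC-derived neurons. Of 5 measured genes of GABA uptake and breakdown, 4 were higher in treated and 2 in control than in primary neurons and 0 were lower, with medians of 0.63 in treated and 0.52 in control neurons, where 19.9% and 19.3% of all genes were called higher. Slc6a13, a GABA transporter gene of meninges and other non-neuronal tissue, averaged 8.80 in treated, 9.16 in control and 5.52 in primary neurons, and so was 9.68-fold and 12.5-fold higher (differences 3.27 and 3.64, adjusted p = 8.16e-07 and 3.36e-07). Slc6a12, the betaine and GABA transporter gene, was higher by 1.25 and 1.34 (adjusted p = 0.0153 and 0.0105). Abat, which encodes GABA transaminase, was higher by 0.63 in treated neurons (adjusted p = 0.0299), while the control difference was 0.52 (adjusted p = 0.0609), and the astrocytic transporter gene Slc6a11 did not pass in either.

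Of 11 other factors that select or partner with the GABAergic programme of the midbrain, 6 were lower and 0 higher in each iPSC-derived group. Their medians were -0.51 in treated and -0.44 in control neurons, and 21.3% and 22.5% of all genes were called lower. Lhx5, the close relative of Lhx1, was lower by a difference of -1.46 in treated and -1.49 in control neurons (adjusted p = 6.65e-05 and 5.51e-05). The LIM-only genes Lmo1 (-0.99 treated, -1.25 control) and Lmo4 (-0.98 treated, -1.05 control) and their binding partner gene Ldb1 (-0.89 treated, -0.80 control) were also lower. Helt, a midbrain GABAergic selector gene, was lower by small amounts (-0.32 treated, -0.35 control) at levels of 4.27 and 4.24, against 4.59 in primary neurons, below the lower quartile of every array. Tal2, a relative of Tal1, did not pass (-0.52, adjusted p = 0.0527, and -0.44, adjusted p = 0.0932), nor did Zfpm1, Zfpm2, Six3 and Lmo2.

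Factor genes of GABAergic neurons of other regions were also counted. Of 10 forebrain factors, 0 were higher or lower in either iPSC-derived group, and their mean was 5.21 to 5.40 on treated, 5.10 to 5.35 on control, 5.40 to 5.49 on E14.5 and 5.34 to 5.44 on E13.5 arrays. All 10 lay below the median of genes in every group, with the largest difference at -0.37 for Dlx6 in both groups (adjusted p = 0.0932 in treated and 0.0876 in control neurons). Of 7 factors of spinal, hindbrain and cerebellar inhibitory neurons, 1 was lower in treated (Pax2, -0.44) and 2 in control neurons (Pax2, -0.37, and Ptf1a, -0.41), a share near that of all genes called lower, 21.3% in treated and 22.5% in control neurons. The peptide and calcium-binding protein genes of inhibitory neurons had 5 lower and 0 higher of 10 in each group. Cck was called lower at -4.26 in treated and -4.60 in control neurons, Tac1 at -2.73 in treated and -2.81 in control, and Sst at -2.54 in treated and -2.32 in control neurons. Tac1 averaged 3.79 in treated and 3.70 in control neurons, below the lower quartile of every array, so the size of its difference is not exact. Cck is also made by dopaminergic neurons.

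**Figure D4:**
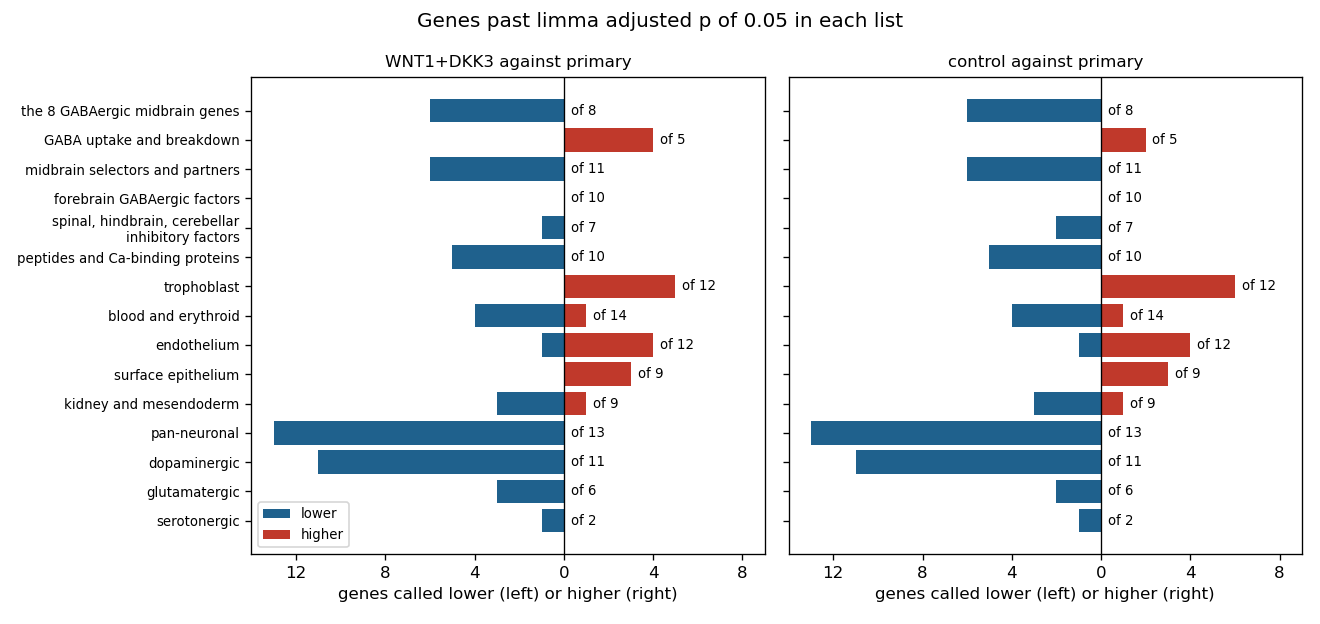
Number of genes called lower (to the left) or higher (to the right) at a limma adjusted p under 0.05 in each list, with the number measured, for treated and for control neurons against primary neurons. The 8 GABAergic midbrain genes have 6 lower in each, beside 13 of 13 pan-neuronal genes lower and 4 (treated) or 2 (control) of 5 GABA uptake and breakdown genes higher.

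The lower GABAergic genes stood beside lower levels of neuronal genes in general. All 13 pan-neuronal genes were lower in both iPSC-derived groups, with medians of -3.86 in treated and -3.91 in control neurons, as were 11 of 11 dopaminergic genes (-3.25 treated, -3.36 control). Without both arrays numbered 5, the medians were -4.26 in treated and -4.14 in control neurons for the pan-neuronal and -3.91 in treated and -3.85 in control neurons for the dopaminergic genes. Dcx, which encodes a microtubule protein of young neurons, was lower by a difference of -4.99 in treated and -4.88 in control neurons. Of 6 glutamatergic genes, 3 were lower in treated and 2 in control neurons, where 21.3% and 22.5% of all genes were called lower. Among them was the vesicular glutamate transporter gene Slc17a6 (-4.17 treated, -4.10 control). Of 2 measured serotonergic genes, 1 was lower (Slc6a4, -0.39 in treated and -0.37 in control). Without both arrays numbered 5, the 8 genes had 6 lower and 0 higher in each group. These arrays had the highest Gad2, Slc32a1 and pan-neuronal levels of their groups, so this count does not bear on the neuronal content. The part of the neuronal content in the Gad2 and Slc32a1 differences was not tested.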

How the data were processed

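Expression was measured on 16 Affymetrix gene arrays. The values are log2 levels of 35556 probe sets as deposited by the authors. The submitters' processing notes name RMA and Affymetrix Expression Console 1.2, but the sources used here do not give whether all arrays were normalized together. Per the labels' protocols, RNA was amplified before labelling, which can add spread, and RMA levels are relative, so changes in total RNA are not read.

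Probe sets with 1 gene symbol (21789) were used, with symbols updated through RefSeq (GRCm38.p6, names and promoters only). Where a gene had several, that with the highest mean was kept, which gave 19938 genes.

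The tests used limma 3.58.1 (R 4.3.3, lmFit and eBayes, two-sided, Benjamini-Hochberg over all genes, threshold 0.05), on 10 arrays for treated against control and on 12 samples in 3 groups for both iPSC-derived groups against primary, the 3 technical arrays of a stage being averaged. The stages were compared without a test. The fit was tested on simulated data with known changes. Alternatives covered left-out replicates, scaling, low levels, probe sets, eBayes settings, the replicate number and single stages.

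The members, lists and alternatives were chosen with earlier results of these data known. Genes named were the members, genes among the 3 most alike to each (predicted genes, small RNAs, histone, olfactory, vomeronasal and immune receptor genes aside) and up to 3 of each list with the largest differences. Ldb1, Helt, Tal2, Zfpm1, Zfpm2, Six3, Lmo2, Slc6a11, Cdx2, Eomes and Cldn5 were named after their values were seen. Some listed genes were not analysed here.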

Additional observations from a re-analysis of the deposited data

Results flagged for a closer look

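Among 16 sets of 5 arrays (8 genes in 2 iPSC-derived groups), 1 held an array far from the others: Gad2 on treated array 5 was at 6.33, and the next highest treated array at 5.06. The gap took up 0.84 of the range of the 5 arrays, above the critical value of 0.71. Chance alone marks about 1 in 20 such sets. Without both arrays numbered 5, Gad2 differed by -0.13 between treated and control neurons and by -4.13 and -4.0 from primary neurons in treated and control neurons.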

How the results depend on the processing

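Each of the 6 called genes kept its direction under every alternative run, and all but Tal1 (both groups) and Sox14 (treated), each against E14.5 alone, kept the call. Counts of all genes moved more. Genes lower than in primary neurons numbered 8833 in control and 8787 in treated neurons with arrays centred on their medians, 2847 and 2722 against E13.5 alone, and 2743 and 2622 against E14.5 alone. With every probe set tested, 6433 were lower in treated neurons. Between treated and control neurons, the replicate block gave 1 gene higher and 0 lower, and left Slc32a1 at 0.26 (limma adjusted p = 0.999). The samples were not treated as paired, because the check used failed at number 1, where deviations correlated at 0.045. For the other numbers they correlated at 0.435 to 0.798, and treated arrays 2, 4 and 5 correlated best with their own number. The check therefore does not show that equal numbers are unrelated, and the labels do not say whether they mark pairs. No paired analysis was possible for the comparisons with primary neurons because the primary samples carry no shared number. With a stage difference of at least 0.5, 301 genes were higher and 225 lower at E14.5, among them 2 of the 8 genes. Leaving out 1 array gave 49 to 70 genes higher and 19 to 38 lower, with 0 to 1 of the 8 genes. Signs turned only for differences that were not called. Without both arrays numbered 5, treated against control gave 0.07 for Gad1 and -0.13 for Gad2, and Gad2 was at -0.01 with centring and -0.02 with quantile normalization. Leaving out 1 array, Gad1 ranged from -0.11 to 0.05, Gad2 from -0.28 to 0.16, Gata2 from -0.35 to 0.17, Gata3 from -0.20 to 0.05 and Tal1 from -0.08 to 0.05. Against primary neurons, the Gata3 difference was -0.17 (treated) and -0.07 (control) with centring, -0.17 and -0.06 with quantile normalization, and -0.42 and -0.34 against E13.5 alone, and ranged from -0.05 to 0.17 in treated neurons with 1 array left out. The cause was not tested, beyond the smaller number of samples with a single stage. Other probe sets of the members could not be tried, since each has 1. Few arrays, a single sample a stage and the lack of detection calls limit what low levels can show.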
